A study of Mus musculus with 4 samples.

Results

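The respiratory chain and ATP synthase of CT26 cells, a mouse colon carcinoma line, are described here through the genes of their subunits, chosen by symbol alone: the Nduf genes of complex I, the Sdh genes of complex II, the Uqcr genes and Cyc1 of complex III, the Cox4 to Cox8 families of complex IV, the Atp5 genes of ATP synthase (complex V), Cycs, and the protein genes of the mitochondrial genome. The names selected 86 of the 21677 gene symbols in the table, 10 of them on the mitochondrial genome and 76 in the nucleus. Expression was measured by bulk RNA sequencing in 4 libraries. Control cells gave libraries S17 and S19, and iRhom1 KO cells, which had received a lentiviral CRISPR vector against Rhbdf1 (the gene of the inactive rhomboid protein iRhom1) and were grown out by single clone culture, gave S18 and S20. Both were kept in RPMI 1640 with fetal bovine serum and were not treated further. The study names WT cells as the comparison in a legend on these data and a control sample in its methods, and it also made a control vector line by single clone culture. Which of them the Control libraries hold is not settled by the labels, and a difference between the genotypes and a difference between clones cannot be told apart. The study describes its analysis of these data as representative of independent experiments, without tying libraries to experiments, and the labels name no cultures. If libraries share a culture, the p-values measure only the spread between these libraries.

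The chain is the last stage of respiration. Complexes I and II pass electrons from NADH and succinate to coenzyme Q, complex III passes them on to cytochrome c, complex IV hands them to oxygen, and complex V uses the proton gradient built on the way to make ATP. Complexes I, III, IV and V are mosaics: a small core of subunits is transcribed from the mitochondrial genome as long polycistronic RNAs that are cut at the tRNAs, and the remaining subunits are transcribed in the nucleus, translated in the cytosol and imported. Complex II is built from nuclear genes only.

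Values are FPKM, fragment counts scaled to transcript length and to the mapped fragments of the library, so levels can be compared between genes. Steps between low FPKM values placed the depth of the libraries at about 49800000 to 53400000 fragments. Fold changes are log2 of FPKM plus 0.5, iRhom1 KO minus Control, and a gene is called where limma gives a Benjamini-Hochberg adjusted p under 0.05 over the 10271 genes tested, those that averaged 1 FPKM or more in either group. By this rule 21.9% of all tested genes were lower and 10.7% were higher in iRhom1 KO cells, and the median log2 fold change of all genes was -0.10. The split between higher and lower calls depended on the scaling between libraries: 32.7% of the calls were higher as the FPKM stand, 42.2% after trimmed mean scaling, 50.8% after quantile normalization and 21.7% after equal nuclear totals. Those nuclear totals include the non-coding rows Gm47299 and Rn7sk. On average they held 23.6% of all FPKM in Control and 27.4% in iRhom1 KO, and their part in that setting was not tested. The targeted gene could not check the labels. Rhbdf1 was listed at 0.538 and 0.89 FPKM in Control and 0.094 and 0.0584 FPKM in iRhom1 KO, under the level required for testing, and its value equals that of Apobec2, a gene of another chromosome, in 3 of the 4 libraries. Of cell type markers, Ptprc of leukocytes and Pecam1 of endothelium stayed at or below 0.0063 FPKM in every library, while Cdx2 and Vil1 of intestinal epithelium stayed at or below 0.27 FPKM and Krt18 and Krt20, keratins of simple epithelia, lay between 8.58 and 18.3 FPKM. Krt8, another such keratin, was at most 0.0278 FPKM in Control and 6.8 and 7.03 FPKM in iRhom1 KO. Of the 3 leukocyte markers with a row, Cd68, a lysosomal protein of macrophages, stood at 3.36 FPKM in both Control libraries and 0.677 and 0.83 FPKM in iRhom1 KO, and Lyz2, a lysozyme of the same cells, at 1.82 and 2.02 FPKM against 2.24 and 1.42 FPKM. The 3 summed to 5.19 and 5.38 FPKM in Control and 2.91 and 2.25 FPKM in iRhom1 KO. The 4 mesenchymal markers with a row were all expressed and summed to 65.5 and 60.8 FPKM against 72.5 and 77.8 FPKM. The part of these differences in the results was not tested.

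All 10 mitochondrially encoded members were lower in both iRhom1 KO libraries than in both Control libraries, and 7 of the 10 passed the test (70.0% of them, beside 21.9% of all genes; over all genes, 46.1% did not overlap between the groups in the lower direction). No member was higher. An unadjusted limma p under 0.05 was reached by 8, beside 4820 of all 10271 genes tested. The median log2 fold change of the 10 members was -0.41. This is -0.31 relative to the median of all genes, and the distance lay between -0.30 and -0.36 after trimmed mean scaling, quantile normalization and equal nuclear totals. Together the 10 genes held 21700 FPKM in S17 and 20300 in S19 of Control, and 18000 in S18 and 16800 in S20 of iRhom1 KO. The groups did not overlap, at a ratio of 0.828. Its two-sided p of 0.333 by an exact permutation test is the smallest that 4 libraries in groups of 2 allow. As a share of all FPKM the 10 genes took 5.33% and 4.69% in Control and 4.19% and 3.77% in iRhom1 KO. In the same libraries 2 non-coding rows, Gm47299 and Rn7sk, took 23.1% and 24.1% in Control and 26.1% and 28.7% in iRhom1 KO, and their part in the shares was not tested.

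**Figure D1:**
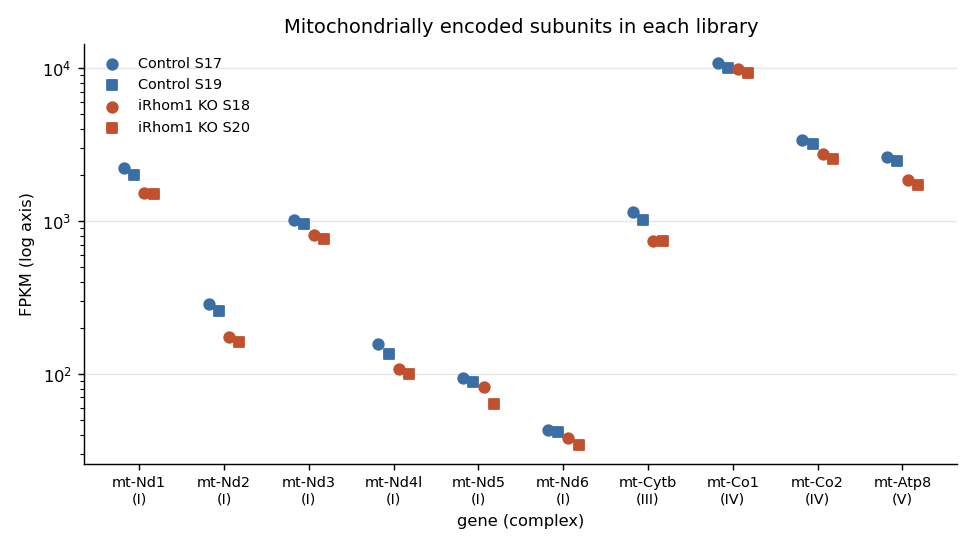
FPKM on a log axis of each mitochondrially encoded subunit, with its complex, in Control libraries S17 and S19 (blue) and iRhom1 KO libraries S18 and S20 (orange). In each gene both blue points lie above both orange points, from mt-Co1, the highest at 9230 to 10800 FPKM, to mt-Nd6, the lowest at 34.4 to 43 FPKM.

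The size of the difference was not even along the mitochondrial genome. Among the complex I subunits, which form the membrane arm that pumps protons, mt-Nd2 showed the largest fall of the 10 genes, from 287 and 258 FPKM in Control to 175 and 162 FPKM in iRhom1 KO (log2 fold change -0.69, standard error 0.0852, limma adjusted p = 0.0103). mt-Nd1, which lies near the quinone site, stood at 2230 and 2000 FPKM against 1520 and 1490 FPKM (-0.49, standard error 0.0818, adjusted p = 0.0185). mt-Nd4l, the smallest of them, stood at 156 and 134 FPKM against 107 and 98.9 FPKM (-0.48, adjusted p = 0.0300). In these genes the lower Control library stayed well above the higher iRhom1 KO library. mt-Nd3 was 1020 and 958 FPKM in Control and 811 and 761 FPKM in iRhom1 KO (-0.33, adjusted p = 0.0339). mt-Nd5 was 93.9 and 88.8 FPKM against 82 and 63.4 FPKM and did not pass (-0.34, adjusted p = 0.132), the iRhom1 KO libraries being far apart. Without S18 it passed, at -0.52 (adjusted p = 0.0412). mt-Nd6, the only member on the light strand, was the lowest at 43 and 41.3 FPKM against 38 and 34.4 FPKM and did not pass either (-0.22, adjusted p = 0.0930).

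mt-Cytb, the haem-carrying core of complex III, fell from 1150 and 1020 FPKM in Control to 739 and 737 FPKM in iRhom1 KO (-0.55, standard error 0.0848, adjusted p = 0.0157). mt-Atp8, a subunit of the proton channel part of ATP synthase, stood at 2640 and 2470 FPKM against 1850 and 1730 FPKM (-0.51, standard error 0.0773, adjusted p = 0.0152). The catalytic core of complex IV was less even. mt-Co2, which takes electrons from cytochrome c, was 3370 and 3200 FPKM in Control and 2730 and 2530 FPKM in iRhom1 KO (-0.32, adjusted p = 0.0428). mt-Co1, which holds the oxygen-reducing centre and was the most abundant member of all, was 10800 and 10100 FPKM against 9900 and 9230 FPKM and did not pass (-0.12, standard error 0.0849, adjusted p = 0.312). With mt-Co1 as the yardstick within each library, mt-Nd2 stood at a ratio of 0.0267 and 0.0256 in Control and 0.0177 and 0.0175 in iRhom1 KO. The same ratio was 0.245 in both Control libraries and 0.187 and 0.188 in iRhom1 KO for mt-Atp8, and 0.0949 and 0.0950 against 0.0819 and 0.0824 for mt-Nd3. Ratios within a library do not move with the scaling between libraries. For each of the other 9 genes both iRhom1 KO libraries lay below both Control libraries. However, mt-Co1 had the smallest fall of the mitochondrial members (-0.12), so ratios to it tend to be lower in iRhom1 KO by that choice. They describe how uneven the genes were and are no separate support for a fall.

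The mitochondrial calls rested on few libraries. Without S17, S19, S18 or S20 the median log2 fold change of the members was -0.33, -0.47, -0.52 and -0.35. For all genes it was -0.11, -0.09, -0.13 and -0.06. No called member kept its call in all of these fits. mt-Nd2 kept its call without S17, S19 or S18, and mt-Co2 and mt-Nd3 lost theirs whichever library was left out. mt-Co2 was also not called after trimmed mean scaling, and mt-Co2, mt-Nd4l and mt-Atp8 were not called after quantile normalization. With no filter on low values, over 21677 genes, only mt-Nd2 was called.

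Several of these transcripts have near-perfect copies in nuclear DNA. A block of mitochondrial sequence inserted in chromosome 1 (GRCm38) carries pseudogenes that the table lists as genes of their own, and their FPKM followed the mitochondrial gene library by library. Gm28661 at chr1:24614885-24615565, identical to mt-Co2 over 681 bases, gave 0.997 to 0.998 of the FPKM of mt-Co2 in all 4 libraries. Gm28438 at chr1:24612775-24613119, 99.71% identical to mt-Nd3 over 345 bases, gave 1.02 of its FPKM in each. Gm29216, 99.79% identical to part of mt-Co1 over 483 bases, gave between 0.497 and 0.509 of its FPKM. How the counting divided fragments between gene and copy is not stated, so the levels of mt-Co1, mt-Co2 and mt-Nd3 are uncertain. Adding the fragments of the copies left 7 of 10 called lower and the median at -0.41. That fit cannot decide the point, because each copy held a nearly constant multiple of its gene in all 4 libraries. mt-Nd4l and mt-Atp8 overlap their neighbours mt-Nd4 and mt-Atp6 on the genome, and fragments of the overlap are uncertain too.

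The first bases of mt-Nd3 and its copy are shown because a single base is all that tells their fragments apart there, T3C, given as the base of mt-Nd3, the position from 1 at the first base of the transcript, and the base of the copy. The differing base is in capitals.
mt-Nd3: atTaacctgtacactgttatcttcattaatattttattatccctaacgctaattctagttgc
Gm28438: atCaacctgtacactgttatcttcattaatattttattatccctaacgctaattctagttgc

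The block also gave values for subunit genes whose own rows are not analysed here. Gm28437 at chr1:24613189-24613971 matches mt-Co3, the remaining core subunit of complex IV, over 783 bases with 100% identity. It stood at 4781 and 4482 FPKM in Control and 3322 and 3077 FPKM in iRhom1 KO (-0.53, adjusted p = 0.0157). Gm28439, identical to 876 bases of mt-Nd4, stood at 88.5 and 78.4 FPKM against 61.1 and 57.7 FPKM (-0.49, adjusted p = 0.0208). Gm10925, identical to mt-Atp6 over 678 bases, stood at 1769 and 1551 FPKM against 1336 and 1306 FPKM (-0.33, adjusted p = 0.0546). These rows show the order seen in the members, Control above iRhom1 KO without overlap, but they cannot be assigned to either genome. They were chosen after their values were seen. The opening bases of mt-Co3, which Gm28437 repeats without a mismatch over the 120 bases shown, make that plain.
mt-Co3: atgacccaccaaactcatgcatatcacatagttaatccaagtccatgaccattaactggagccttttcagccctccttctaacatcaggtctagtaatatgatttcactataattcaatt

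The nuclear members as a whole did not stand below the other nuclear genes. Of the 76, 73 could be tested, and Cox4i2, Ndufa11b and Ndufa4l2 were under 1 FPKM in both groups. Among the 73, 10 were lower (13.7%, beside 21.9% of all genes) and 4 were higher (5.48%, beside 10.7%), with a median of -0.08 beside -0.10. Of these calls, 8 of the lower and all 4 higher are annotated as protein coding (11.4% and 5.71% of tested members so annotated). The other lower ones, Ndufs6b and Cox6c2, are processed pseudogenes. The groups did not overlap for 28 members in the lower direction and 20 in the higher, beside 46.1% and 25.9% of all genes. Of the 14 called members, Ndufs6b, Cox7a1 and Cox6a2 passed the filter only through the group where they are high. Over the 70 members with at least 1 FPKM in both groups the counts were 8 lower and 3 higher, beside 21.6% and 9.87% of all such genes. The summed nuclear members held 5280 and 5400 FPKM in Control and 5210 and 5220 FPKM in iRhom1 KO. The split of the calls moved with the scaling, to 9 lower and 10 higher after trimmed mean scaling, 11 and 10 after quantile normalization, and 14 and 1 after equal nuclear totals. The median of the members stayed within 0.03 of the median of all genes under each of these. Leaving out any 1 library left 7 lower and 1 higher. The median coefficient of variation between the libraries of a group was 3.43% in Control and 4.17% in iRhom1 KO for the 70 nuclear members, and 3.9% and 6.22% for the 9592 genes of all kinds at that level.

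**Figure D2:**
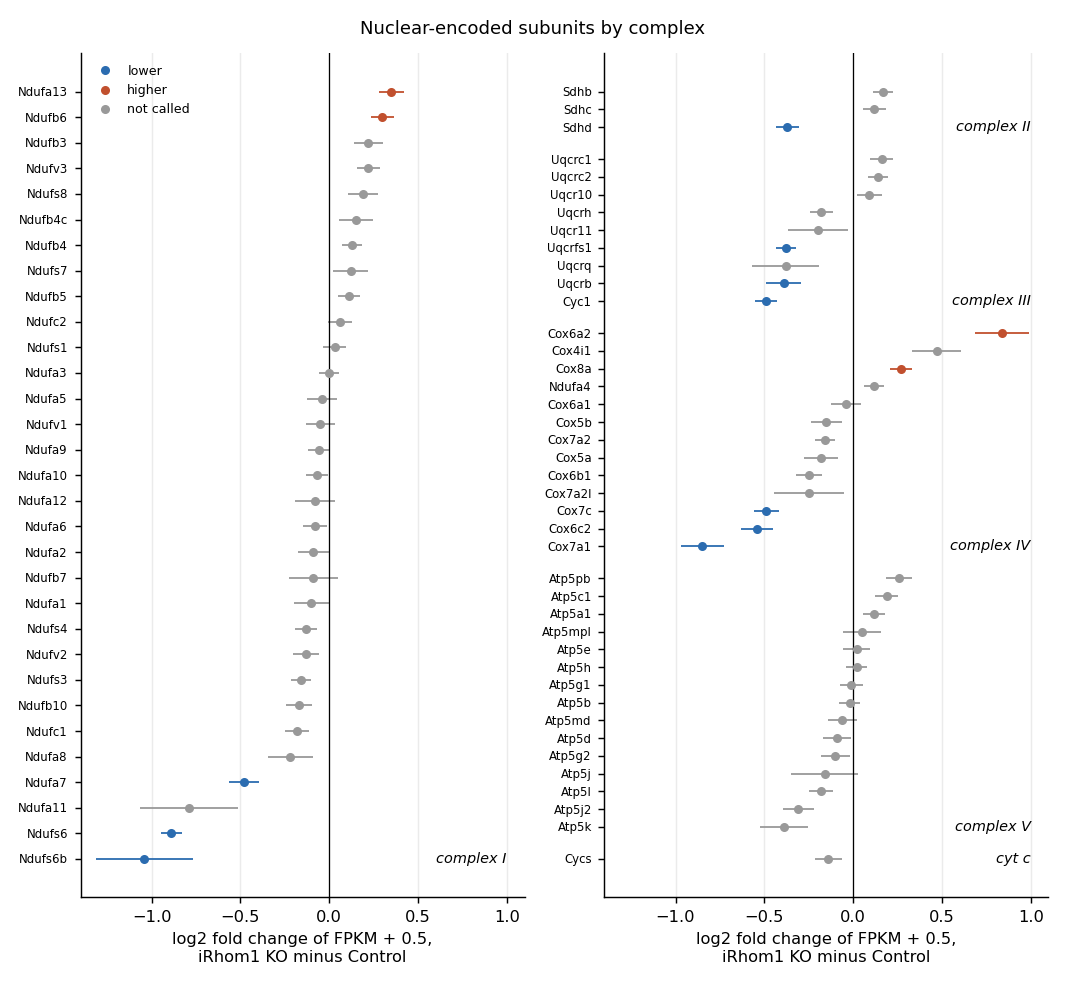
Log2 fold change of FPKM plus 0.5, iRhom1 KO minus Control, for the tested nuclear subunit genes, by complex, with 1 gene of complex I not shown; points are limma estimates with standard errors, blue called lower, orange called higher and grey not called. The 15 genes of complex V are all grey, and Ndufs6 at -0.89 is the lowest protein-coding subunit of complex I, next to Ndufa11 at -0.79, which has a wide error and is grey.

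With mitochondrial and nuclear sums set side by side, the ratio of mitochondrially to nuclear-encoded FPKM was 4.12 and 3.75 in Control and 3.44 and 3.23 in iRhom1 KO. It differed by complex. The mitochondrial part was mt-Atp8 alone in complex V and mt-Cytb alone in complex III, so those ratios follow a single gene. mt-Nd4, mt-Co3 and mt-Atp6 are not in the sums. In complex V the ratio was 1.92 and 1.79 against 1.30 and 1.23, while its nuclear sum was 1370 and 1380 FPKM against 1420 and 1410 FPKM. In complex I it was 2.85 and 2.49 against 2.02 and 1.92. In complex III it was 1.59 and 1.43 against 1.16 and 1.19, although there the nuclear sum was lower as well, at 724 and 712 FPKM in Control and 635 and 621 FPKM in iRhom1 KO. Complex IV, dominated by mt-Co1, had 9.18 and 8.25 against 8.25 and 7.53, so that its groups met at 8.25. These ratios come from libraries 2 against 2 and were not tested beyond the smallest exact p of 0.333.

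**Figure D3:**
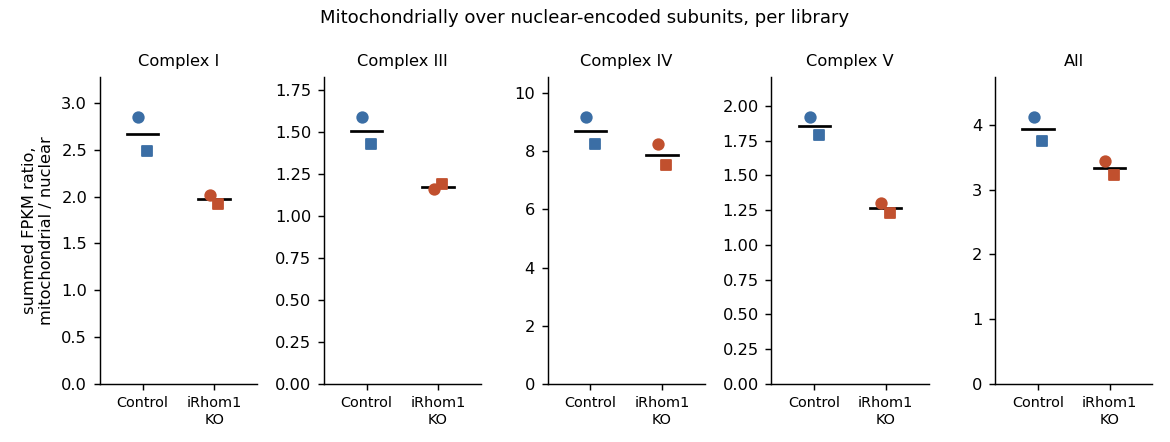
Ratio of the summed FPKM of mitochondrially encoded to nuclear-encoded members, for complexes I, III, IV and V and for all members, in each Control (blue) and iRhom1 KO (orange) library; black lines are group means. The mitochondrial part is mt-Cytb alone in complex III and mt-Atp8 alone in complex V. Each axis starts at 0. The groups are apart in complexes I, III and V and meet at 8.25 in complex IV.

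Complex I had the most nuclear members, of which 3 of 32 tested were lower (9.38%) and 2 higher (6.25%), with a median of -0.07. Over all genes the shares were 21.9% and 10.7%, so calls were fewer here. Without Ndufs6b, which is under 1 FPKM in iRhom1 KO, 2 of 31 were lower and 2 higher. Of all genes at 1 FPKM or more in both groups, 21.6% were lower and 9.87% higher. Ndufs6, a zinc-binding subunit of the matrix arm, fell from 31.4 and 32.3 FPKM in Control to 17.1 and 16.8 FPKM in iRhom1 KO (-0.89, standard error 0.0593, adjusted p = 0.00486). Libraries of a group differed by under 1 FPKM here and the groups by about 15. The row Ndufs6b, a processed pseudogene on chromosome 7 that is 97.54% identical to Ndufs6 over 244 bases, stood at 1.54 and 2.87 FPKM against 0.902 and 0.653 FPKM (-1.04, adjusted p = 0.0497), and its call was lost under 6 of 13 alternative fits. Ndufa7, a supernumerary subunit of the matrix arm, stood at 44.2 and 48.3 FPKM in Control and 31.5 and 34.7 FPKM in iRhom1 KO (-0.48, adjusted p = 0.0212), a call lost without S19, S18 or S20. In the other direction, Ndufa13, also known as GRIM-19, rose from 69.4 and 71.1 FPKM to 85.5 and 93.8 FPKM (0.35, adjusted p = 0.0292). Ndufb6, a subunit of the membrane arm, rose from 67.6 and 71.9 FPKM to 86.5 and 85.8 FPKM (0.30, adjusted p = 0.0291). Both rises lost their call under equal nuclear totals, Ndufb6 also whichever library was left out, and Ndufa13 with no filter and without S17, S19 or S20. Ndufa11, a supernumerary subunit in the membrane, had a wide fold change of -0.79 that did not pass, because Control itself was split at 16.2 and 9.18 FPKM above 7 and 6.69 FPKM in iRhom1 KO (adjusted p = 0.0918). It was singled out after its values were seen. Of the matrix arm, which takes up the electrons of NADH, the subunits Ndufv1, Ndufv2, Ndufs1, Ndufs3, Ndufs7 and Ndufs8 missed the threshold, with fold changes between -0.16 and 0.19. Ndufa2 was the most abundant nuclear member of the complex, at 145 and 160 FPKM in Control and 137 and 151 FPKM in iRhom1 KO, and the groups overlapped. The least abundant was the processed pseudogene Ndufa11b, between 0.141 and 0.585 FPKM.

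Complex II was represented by Sdhb, Sdhc and Sdhd, since Sdha is not analysed here. Its members differed in direction. Sdhd, the smaller membrane anchor, fell from 110 and 113 FPKM in Control to 83.4 and 88.9 FPKM in iRhom1 KO (-0.37, standard error 0.0642, adjusted p = 0.0198), a call lost without S17 and without S19. Sdhc, the partner anchor, was 21.8 and 23.1 FPKM against 23.9 and 25.1 FPKM (0.12, adjusted p = 0.218). Sdhb, the iron-sulphur subunit, was 60.5 and 61.6 FPKM against 68.8 and 68.7 FPKM (0.17, adjusted p = 0.0816). Sdhd thus lay lower in iRhom1 KO without overlap, and the other pair lay higher without overlap and did not pass. Sdhb passed after trimmed mean scaling (adjusted p = 0.0493) and quantile normalization (adjusted p = 0.0427).

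In complex III 3 of 9 nuclear members were lower (33.3%, beside 21.9% of all genes) and none was higher, with a median of -0.20. All 3 lie on chromosomes 13 and 15, where lower calls were frequent among genes in general. The 3 include both redox subunits encoded in the nucleus. Cyc1, cytochrome c1, fell from 43.3 and 45.5 FPKM to 31.9 and 31.0 FPKM (-0.49, standard error 0.0624, adjusted p = 0.0108). Uqcrfs1, the Rieske iron-sulphur protein, fell from 55.9 and 55.8 FPKM to 42.9 and 42.8 FPKM (-0.38, standard error 0.0557, adjusted p = 0.0144), with libraries of a group almost equal. Uqcrb, a small subunit beside the quinone-binding core and the most abundant nuclear member of the complex, stood at 234 and 243 FPKM against 197 and 168 FPKM (-0.39, adjusted p = 0.0449). Uqcrb lost its call with no filter and without S17, S19 or S20, and Uqcrfs1 without S17 and without S19, whereas Cyc1 kept it in each of 13 alternative fits. Uqcrc1 and Uqcrc2, the large core proteins, lay at 0.16 and 0.14 and were not called. Uqcrq, the least abundant, was 17.6 and 23.4 FPKM in Control and 17.6 and 13.6 FPKM in iRhom1 KO, a spread as wide as the difference (-0.38, adjusted p = 0.192). Cycs, the mobile cytochrome c that carries electrons from complex III to complex IV and takes part in apoptosis, was 103 and 101 FPKM against 96.9 and 87.7 FPKM and did not pass (-0.14, adjusted p = 0.202).

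Complex IV holds the isoform pairs of the chain. Of 13 nuclear members tested 3 were lower and 2 higher. Of the 11 at 1 FPKM or more in both groups 2 were lower and 1 higher, beside 21.6% and 9.87% of all such genes. The median was -0.16 in both sets. Cox4i1, the common isoform of subunit 4, was 145 and 161 FPKM in Control and 240 and 188 FPKM in iRhom1 KO (0.47, standard error 0.140, adjusted p = 0.0656). Its groups did not overlap, the iRhom1 KO libraries differed from each other by more than 50 FPKM, and it passed after trimmed mean scaling (adjusted p = 0.0340) and quantile normalization (adjusted p = 0.0474). Cox4i2, the isoform known from lung and from low oxygen, was listed at 0 in 1 library of each group and at no more than 0.0489 FPKM in the others. Ndufa4, now assigned to complex IV, was 73.1 and 74.4 FPKM against 80.3 and 80.6 FPKM (0.12, adjusted p = 0.157), and its hypoxia-linked paralog Ndufa4l2 stayed under 0.14 FPKM in all 4 libraries. At the RNA level Cox4i1 and Ndufa4 were thus far above Cox4i2 and Ndufa4l2 in both groups.

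The muscle-type isoforms were present only in traces beside their common partners. Cox6a2 stood at 0.423 and 0.257 FPKM in Control and 0.884 and 1.13 FPKM in iRhom1 KO (0.84, adjusted p = 0.0219), against 255 and 263 FPKM and 236 and 268 FPKM for Cox6a1 (-0.04, adjusted p = 0.734). Cox7a1 stood at 1.13 and 1.35 FPKM against 0.408 and 0.527 FPKM (-0.85, adjusted p = 0.0134), beside 154 and 154 FPKM against 137 and 139 FPKM for Cox7a2 (-0.16, adjusted p = 0.0968). Neither Cox6a2 nor Cox7a1 exceeded 1.35 FPKM, each entered the test only through the group where it is high, and both lost their call without S18 and without S20, so their differences are given as values only. Cox7a2l, which helps complexes III and IV to associate, was 130 and 133 FPKM in Control and 91.1 and 134 FPKM in iRhom1 KO, so that S18 alone lay low. Its fold change of -0.25 (adjusted p = 0.369) turned to 0.03 without S18 and became -0.53 without S20 (adjusted p = 0.0432). Cox5a and Cox5b, which are different subunits despite their names, lay at -0.18 and -0.15 and were not called (adjusted p = 0.213 and 0.243). Cox6b1, the most abundant nuclear member of complex IV in Control, was 315 and 343 FPKM against 271 and 281 FPKM (-0.25, adjusted p = 0.0621). It passed after quantile normalization (adjusted p = 0.0218) and under equal nuclear totals (adjusted p = 0.0446). Cox6b2, Cox8b and Cox8c are not analysed here.

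Cox7c, a single-span subunit of complex IV, fell from 92.5 and 87.5 FPKM to 61.7 and 66.4 FPKM (-0.49, standard error 0.0706, adjusted p = 0.0139) and kept its call in each of 13 alternative fits. A pseudogene identical to it over 192 bases, Gm12338, gave between 1.36 and 1.5 of its FPKM in the 4 libraries and fell likewise (-0.48, adjusted p = 0.0111). Cox8a, a small membrane subunit, rose from 221 and 234 FPKM to 270 and 278 FPKM (0.27, adjusted p = 0.0405), a call lost whichever library was left out and under equal nuclear totals, quantile normalization and no filter. The row Cox6c2, annotated as a processed pseudogene, stood at 21.9 and 20.4 FPKM against 15.3 and 13.5 FPKM (-0.54, adjusted p = 0.0182). This call was lost without S17 and without S20. Cox6c itself is not analysed here, and fragments of it may be counted in that row.

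None of the 15 nuclear members of complex V was called by limma, beside 21.9% of all genes lower and 10.7% higher. Of the 15, 4 had an unadjusted limma p under 0.05, 2 in each direction, beside 4820 of all 10271 genes tested. The median of the 15 was -0.02. Atp5b, the catalytic beta subunit and the most abundant nuclear member of all, was 396 and 388 FPKM in Control and 387 and 388 FPKM in iRhom1 KO (-0.02, standard error 0.0577, adjusted p = 0.843). Its partner Atp5a1 was 263 and 262 FPKM against 278 and 294 FPKM (0.12, adjusted p = 0.194). The widest differences were those of Atp5k at -0.39 and Atp5j2 at -0.31, both small membrane subunits, and of Atp5pb, the stalk subunit b, at 0.26, with adjusted p = 0.0926, 0.0597 and 0.0622. Under equal nuclear totals 2 members were called lower and after trimmed mean scaling 2 were called higher. Atp5l, listed lowest at 9.59 and 9.54 FPKM against 8.65 and 8.07 FPKM (-0.18, adjusted p = 0.107), has copies of higher FPKM. Its processed pseudogene Gm10221, identical over 309 bases, was listed at 16.2 to 18.1 times the FPKM of Atp5l, and how fragments were divided between them is not known.

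Such copies were common. Of the nuclear members, 18 had a pseudogene transcript at 97% identity or more over at least 100 bases, and for 17 of them the table has a row for the copy. Atp5g1, which encodes subunit c of the rotor, was listed at 14.6 and 14.8 FPKM in Control while Gm10039, 99.76% identical over 411 bases, had 8.38 and 8.57 times as much. Ndufb4 and the member Ndufb4c are identical over 390 bases and were listed at 25.4 and 25.3 FPKM against 27.8 and 27.7 FPKM and at 20.3 and 23.0 FPKM against 22.8 and 25.2 FPKM. The levels of members with copies, relative to others, are therefore uncertain. Joining the fragments of copies for the 12 nuclear members where they could be summed left the counts at 10 lower and 4 higher. Of these 12 only Cox7c and Uqcrb were called in the reported fit, so most calls were not open to change. The unchanged count thus cannot decide whether copies affect the calls.

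Most of the lower nuclear members lay on chromosomes where lower calls were frequent in general. Chromosomes 13, 15 and 17 were grouped for their low medians in these same data, and chromosome 5, at -0.23, is counted with the others. On chromosomes 13, 15 and 17 together, 46.5% of all tested genes were lower and 5.54% higher, against 18.2% and 11.5% on the other chromosomes. Of the 15 nuclear members there, 6 were lower (40%) and none higher, with a median of -0.25, and of the 58 elsewhere 4 were lower and 4 higher, with a median of -0.04. Without the members that reached 1 FPKM in a single group the latter were 2 lower and 3 higher of 55, and the former did not change. The 6 were Ndufs6, Uqcrb, Uqcrfs1 and Cox7c of 5 members on chromosome 13, Cyc1 of 4 on chromosome 15 and Ndufa7 of 6 on chromosome 17. The medians of the members there, called or not, were -0.39, -0.09 and -0.21. The chromosome median of all tested genes was -0.34, -0.32 and -0.37 in turn. With that median taken away, Ndufs6 kept -0.54, Cyc1 -0.17, Cox7c -0.14, Ndufa7 -0.11, Uqcrb -0.05 and Uqcrfs1 -0.03. Away from these chromosomes Sdhd on chromosome 9 kept -0.33, where the median was -0.04. The other lower calls elsewhere kept more, with the pseudogene rows Cox6c2 and Ndufs6b at -0.5 and -0.99 and Cox7a1 at -0.8. Of these, Ndufs6b and Cox7a1 averaged 1 FPKM or more in Control only. Over all 73 members the median became 0.02. Whether DNA copy number differs between the Control and iRhom1 KO cells was not measured here.

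**Figure D4:**
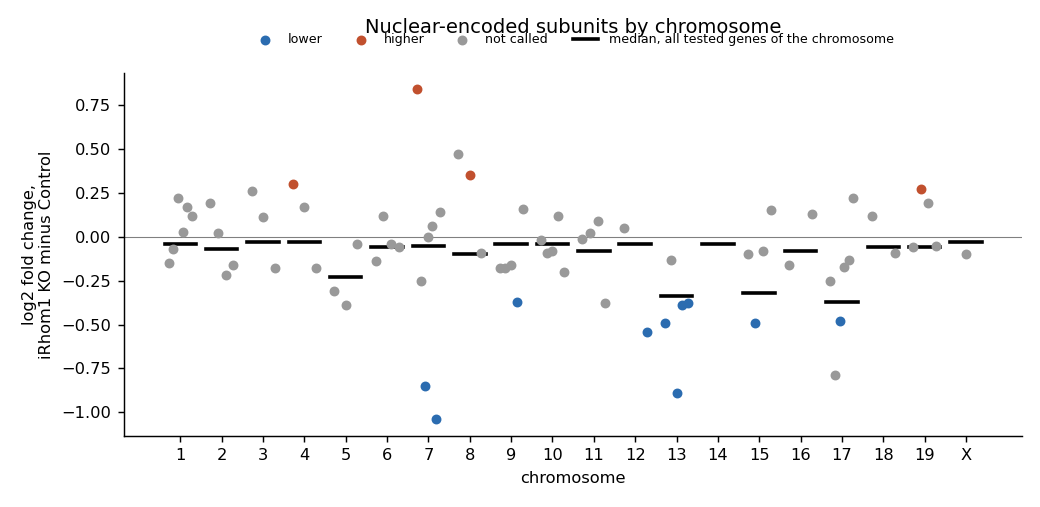
Log2 fold change of each tested nuclear member (points; blue called lower, orange called higher, grey not called), by chromosome, with the median of all tested genes of that chromosome as a black bar. The bars of chromosomes 5, 13, 15 and 17 lie between -0.23 and -0.37, and 6 of the 10 blue points are on 13, 15 and 17; Ndufs6 lies 0.54 below its bar.

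Promoters of called members were searched for short cores of motifs known from respiratory genes. RefSeq windows (GRCm38.p6) of 300 bases, from 250 before to 50 after the start, matched 58 of the 76 nuclear members, with 63 windows. The letters GCATGCG of NRF1, on either strand, were in 19% of the member windows and 6.80% of the 8833 windows of all tested genes with one. The letters CCGGAAG of GABP, an ETS factor, were in 27.0% and 19.4%, and ATGGCGG of YY1, which can also hold a start codon, in 17.5% and 8.98%. ACGTG, the core bound by HIF, was in 25.4% and 26.7%. No other overlap between the motifs was removed, and a match is a description of letters only. Of the called members 9 had windows, none of which held the NRF1 letters. Ndufs6, the lowest protein-coding member, and Sdhd, the called member of complex II, are shown with Cox8a, called higher, with matches to the NRF1, GABP or YY1 letters in capitals.
Ndufs6, chr13:73328433-73328732, minus strand: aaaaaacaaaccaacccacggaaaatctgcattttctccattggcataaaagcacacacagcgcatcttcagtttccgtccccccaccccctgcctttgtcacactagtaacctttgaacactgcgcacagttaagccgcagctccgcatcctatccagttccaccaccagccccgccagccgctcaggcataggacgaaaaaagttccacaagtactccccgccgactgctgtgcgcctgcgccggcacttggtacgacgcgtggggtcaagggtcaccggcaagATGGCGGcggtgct
Sdhd, chr9:50603800-50604099, minus strand: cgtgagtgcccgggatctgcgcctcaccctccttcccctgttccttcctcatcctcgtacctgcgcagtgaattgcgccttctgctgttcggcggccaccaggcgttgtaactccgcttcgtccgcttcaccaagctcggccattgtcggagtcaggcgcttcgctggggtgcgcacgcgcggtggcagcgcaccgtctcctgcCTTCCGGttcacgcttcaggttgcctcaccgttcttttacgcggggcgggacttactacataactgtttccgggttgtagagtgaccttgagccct
Cox8a, chr19:7217567-7217866, minus strand: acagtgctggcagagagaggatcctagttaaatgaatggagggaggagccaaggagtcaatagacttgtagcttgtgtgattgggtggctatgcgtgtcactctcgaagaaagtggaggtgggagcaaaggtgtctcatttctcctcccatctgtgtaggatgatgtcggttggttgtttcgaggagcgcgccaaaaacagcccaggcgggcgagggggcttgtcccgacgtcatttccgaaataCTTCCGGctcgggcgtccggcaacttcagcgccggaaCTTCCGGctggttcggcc
The GABP letters occur 1 time in the window of Sdhd, which was lower, and 2 times in that of Cox8a, which was higher. The lower calls had 7 windows of 6 genes and the higher calls 3 windows of 3 genes. GABP letters were in 1 of the 7 and 2 of the 3. Those of YY1, and likewise of HIF, were in 3 of the 7 and 0 of the 3. A difference between directions was not tested at these counts.

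Genes that build, express, feed or bypass the chain were described through 12 lists, of which 180 distinct genes were tested, 37 of them lower and 21 higher. The share of lower calls over all genes was 21.9% and that of higher calls 10.7%. Among 28 assembly factors of complexes II to IV, 7 were lower (25%, near the share of all genes) and none was higher, with a median of -0.20. Lrpprc, which stabilizes mitochondrial mRNAs, fell from 30.8 and 29.1 FPKM to 17.7 FPKM in both iRhom1 KO libraries (-0.74, adjusted p = 0.00594). Cox19, a copper-handling factor of complex IV, fell by 0.57 (adjusted p = 0.00965) and Cox14, which binds nascent mt-Co1 protein, fell by 0.57 (adjusted p = 0.0149). Of the 7, 4 lie on chromosomes 13, 15 or 17, Lrpprc and Cox14 among them. Assembly factors of complex I were called in both directions, 3 lower and 2 higher of 16, with Ndufaf2 at -0.59, Ndufaf8 at -0.38 and Tmem126a at -0.33 lower, and Ndufaf6 at 0.40 and Dmac1 at 0.26 higher. Of 6 complex V factors only Tmem242 was called, at -0.35, close to the median of its chromosome 17.

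The machinery of mitochondrial DNA and RNA had 8 lower (26.7%) and 2 higher (6.67%) of 30 tested, and its median of -0.10 equalled that of all genes. Besides Lrpprc, the lower genes with the smallest p were Tbrg4, also known as Fastkd4, at 5.89 and 6.21 FPKM against 4.21 and 3.92 FPKM (-0.52, adjusted p = 0.0137), and Fastkd2, a factor of 16S rRNA and ribosome assembly, at 9.66 and 9.10 FPKM against 5.74 and 4.62 FPKM (-0.81, adjusted p = 0.0145). The higher genes were Hsd17b10, a subunit of the RNase P that cuts tRNAs out of the polycistronic RNA, at 0.66, and Pnpt1, the mitochondrial polynucleotide phosphorylase, at 0.43. Only 1 of the 8 lower genes of this list, Lrpprc, is on chromosomes 13, 15 or 17. Of 11 regulators of mitochondrial biogenesis 4 were lower (36.4%, beside 21.9% of all genes) and none was higher. Among them were the deacetylase Sirt1 at -0.59, the GABP subunit Gabpb2 at -0.44 and Myc at -0.35. Of the 4, Myc and Prkaa1 are on chromosome 15, whose median was -0.32. They are the only 2 tested genes of this list on chromosomes 13, 15 and 17, where 46.5% of all tested genes were lower.

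**Figure D5:**
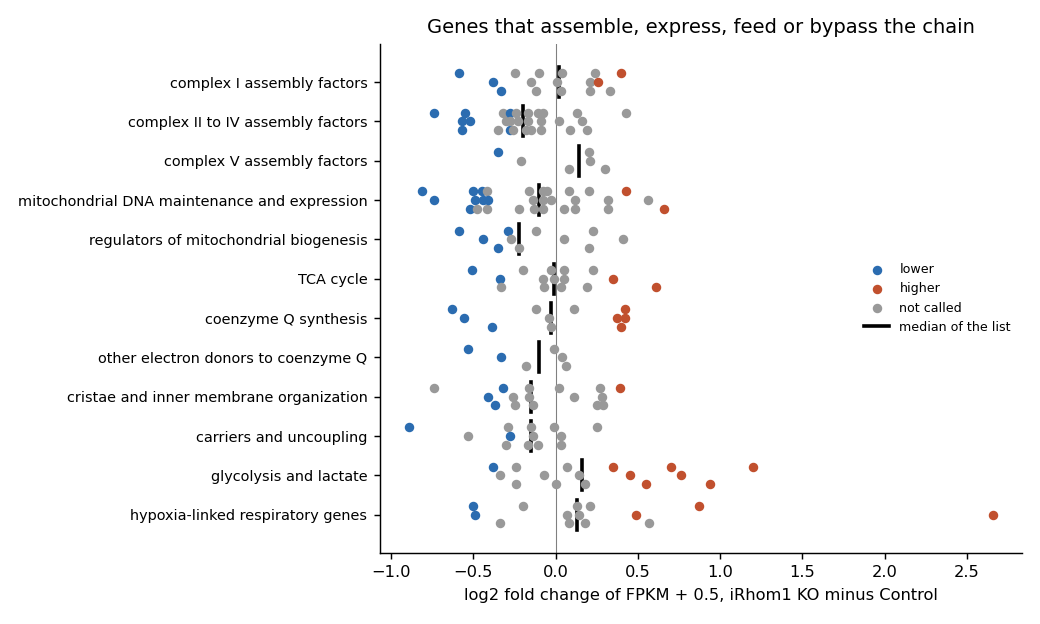
Log2 fold change, iRhom1 KO minus Control, of the tested genes of each list (points; blue called lower, orange called higher, grey not called), with the median of the list as a black bar. The glycolysis list has 7 orange points of 16, beside 10.7% of all genes called higher, and the assembly factors of complexes II to IV have 7 blue points of 28, near the 21.9% of all genes called lower.

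Electron supply to the chain was mixed. In the TCA cycle Ogdh was lower at -0.51, and Idh2 at 0.61 and Idh3g at 0.35 were higher. Coenzyme Q synthesis had 3 lower (27.3%, beside 21.9% of all genes) and 4 higher (36.4%, beside 10.7%) of 11. Coq7, the hydroxylase of a late step, fell from 3.23 and 3.46 FPKM to 2.12 and 2.10 FPKM (-0.56, adjusted p = 0.0121), with Coq10b at -0.39 and Pdss2 at -0.63 also lower, while Coq9, the lipid-binding partner of Coq7, rose from 12.3 and 12.4 FPKM to 15.7 and 16.6 FPKM (0.37, adjusted p = 0.0200), with Coq3 at 0.42 and Coq6 at 0.40. Of 6 other donors to coenzyme Q tested, 2 were lower (33.3%) and none was higher. Sqor, the sulphide oxidizing enzyme, fell by 0.53 and Gpd2, the mitochondrial glycerol 3-phosphate dehydrogenase, by 0.33. Cristae genes had 3 lower (18.8%, under the 21.9% of all genes) and 1 higher (6.25%, under 10.7%) of 16. They were Dnajc11 at -0.37, Immt, the core of the MICOS complex, at -0.32, Letm1 at -0.41 and Apool at 0.39. Among 13 carriers 2 were lower (15.4%, also under that share), Slc25a10, the dicarboxylate carrier, at -0.89 and Mpc2, a subunit of the pyruvate carrier, at -0.28.

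Glycolysis had the highest share of higher calls among the 12 lists, 7 of 16 (43.8%, beside 10.7% of all genes), against 1 lower, and a median of 0.16. Eno2, an enolase isoform, rose from 2.81 and 3.38 FPKM to 8.16 and 7.35 FPKM (1.20, adjusted p = 0.00682), and Pgk1, phosphoglycerate kinase, from 469 and 486 FPKM to 665 and 640 FPKM (0.45, adjusted p = 0.0127). The glucose transporter Slc2a1 was also called, at 0.76, and Pfkm, a phosphofructokinase on chromosome 15, was the lower one at -0.38. Of 14 hypoxia-linked genes of respiration 3 were higher (21.4%, beside 10.7% of all genes) and 2 lower (14.3%, beside 21.9%). The study, by gene set enrichment on these data, lists hypoxia among the pathways downregulated in iRhom1 KO cells. That measure covers another set of genes and was not repeated here. Pdk1, the kinase that restrains pyruvate dehydrogenase, rose from 6.70 and 7.31 FPKM to 13.6 and 12.7 FPKM (0.87, adjusted p = 0.00654). Bnip3 at 2.66 and Bnip3l at 0.49, receptors of mitophagy, were the other higher genes, and Egln2 at -0.50 and Hif1an at -0.49, oxygen-sensing hydroxylases, were the lower ones. In the chain itself the isoforms tied to low oxygen, Cox4i2 and Ndufa4l2, stayed near 0 in the same libraries.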

How the data were processed

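RNA of 4 libraries of CT26 cells, 2 Control and 2 iRhom1 KO, was sequenced, and the deposited table holds FPKM per gene and library, made by the authors with HISAT2, StringTie and GRCm38. No scaling beyond FPKM is stated. The fold (ratio) and log2 columns deposited by the authors hold their own comparison and were not used. How the libraries were prepared and how fragments matching several loci were counted is not given in the sources used here. The value columns carry library tags and name the group.

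Of 21724 rows, 19 that name no gene were dropped and the 54 rows of 26 shared symbols were summed. The members were found by symbol, and 10 rows with -ps names were left out. The members and lists were chosen with earlier results of these data known. Positions are from GENCODE vM21, or RefSeq for 2 members. The test was limma 3.58.1 in R 4.3.3 (trend, not robust) on log2 of FPKM plus 0.5. Genes under a mean of 1 FPKM in both groups were not tested, and the pseudocount understates changes of low genes. Copies were found with blastn of BLAST+ 2.17.0+ against GENCODE transcripts. The fit was also run on simulated data with 200 genes changed and 1 common spread for all genes. That setting differs from these data, so it gives no error rate for them.

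Genes named are all mitochondrial members, Rhbdf1, complex II, cytochromes, isoform pairs, the called members of each complex with the largest fold change (up to 5 in each direction), the most and least abundant of each complex, and up to 3 called genes in each direction of each list. Results of some single genes are not reported here. Copies, the subunits named of the matrix arm, Ndufa11, Ndufb4, Ndufb4c, the core proteins Uqcrc1 and Uqcrc2, Atp5a1, Atp5k, Atp5j2, Atp5pb and Atp5g1 fall outside this rule. Alternatives were pseudocounts of 0.1 and 1, no filter or a mean of 5 FPKM, trimmed mean scaling, quantile normalization, nuclear genes set to equal totals, robust moderation, the highest row of a shared symbol, each library left out, chromosome medians subtracted and, chosen after seeing the data, fragments of copies joined.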

Additional observations from a re-analysis of the deposited data

How the results depend on the processing

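Over all alternatives the nuclear members called lower stayed between 7 and 14 (10 in the reported fit), and no mitochondrially encoded member was called higher. Nuclear members called higher (4 reported) were 2 with no filter, 10 after trimmed mean scaling, 10 after quantile normalization, 1 with equal nuclear totals and 1 to 1 with a library left out. Mitochondrially encoded members called lower (7 reported) were 1 with no filter, which tests more genes, 4 after quantile normalization and 0 to 5 with a library left out. The median log2 fold change of nuclear members (-0.08) was -0.02 after trimmed mean scaling, 0.02 after quantile normalization, -0.15 with equal nuclear totals, 0.02 with chromosome medians subtracted, and -0.07 to -0.05 with a library left out. That of mitochondrially encoded members stayed between -0.52 and -0.33. The log2 ratio of their summed FPKM (-0.27) was -0.35 with equal nuclear totals and -0.32 to -0.22 with a library left out. List genes called (58) were 36 with no filter and 22 to 38 with a library left out. Atp5b turned to 0.04 and Cox6a1 to 0.02 after trimmed mean scaling, and without S18 Cox6a1 turned to 0.05 and Cox7a2l to 0.03. Without S20 they were -0.13 and -0.53. Ndufs6, Cyc1 and Cox7c kept their call in each of 13 alternative fits. The cause of these changes was not tested, and fits without a library have fewer samples.

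With a library left out, the single library of a group is assumed to vary like the other group. No paired analysis was possible because the value columns carry library tags and not the replicate numbers of the labels. With 2 libraries in a group and FPKM in place of counts, small differences of single subunits were not detectable, and a subunit that missed the threshold is not shown to be equal.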

Other observations

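The mitochondrial genome has 20 further rows in the table, its rRNAs and tRNAs, of which 19 were tested. mt-Rnr2, the 16S rRNA of the mitochondrial ribosome, stood at 676 and 575 FPKM in Control and 320 and 272 FPKM in iRhom1 KO (log2 fold change -1.08, standard error 0.126, limma adjusted p = 0.00965), further apart than any of the protein genes. mt-Rnr1, the 12S rRNA, stood at 97.2 and 43.3 FPKM against 68.9 and 69.6 FPKM, so that the Control libraries spread around iRhom1 KO. Of the tRNAs only mt-Tq was called, at 13.8 and 10.9 FPKM against 8.16 and 7.04 FPKM (-0.66, adjusted p = 0.0316). The most abundant tRNA rows, mt-Tc, mt-Ty and mt-Tn, had 1240 to 1580, 876 to 1190 and 928 to 1170 FPKM over Control, and 1320 to 1430, 1020 to 1080 and 1060 to 1070 FPKM over iRhom1 KO, so the groups overlapped. Whether rRNA was removed or poly(A) RNA selected is not stated, and its part in these values was not tested.

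Ndufab1, the acyl carrier protein that is also a subunit of complex I, is not caught by the naming rule and stood at 4.46 and 5.45 FPKM in Control and 4.44 and 3.11 FPKM in iRhom1 KO (-0.36, adjusted p = 0.205). Of the 10 rows with -ps names 6 were tested and none was called by limma, the smallest adjusted p being 0.219 for Atp5l-ps1. Ndufb1-ps, annotated as a non-coding RNA, stood at 49.2 and 45.9 FPKM against 51.5 and 51.7 FPKM.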
